A study of Sus scrofa with 8 samples.

Results

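Tuft and microvillous chemosensory cells are rare epithelial cells with a brush of stiff microvilli that are found among the supporting cells and neurons of the nasal epithelium. The 10 genes described here mark these cells or make the signals they release. They were picked from the 25880 pig genes of the deposited count table by gene symbol, SH2D6 through its genomic position, and all 10 were found. The samples were olfactory epithelium dissected from newborn piglets, 4 labelled as CFTR knock-out (numbers 6, 18, 20 and 21) and 4 labelled as wild type (numbers 5, 9, 12 and 23), with 1 RNA-seq library per piglet and no further treatment. CFTR is the chloride and bicarbonate channel whose loss causes cystic fibrosis, and the study asked what underlies the loss of smell in that disease. The labels give no strain, litter, sex or library batch and do not describe the knock-out allele.

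In mice and humans, tuft cells of the gut and airway detect bitter, sweet or microbial compounds with the cascade of taste cells. A receptor activates a G protein that contains gustducin (GNAT3), phospholipase PLCB2 releases calcium from stores through ITPR3, and the calcium opens the cation channel TRPM5. The cells depend on the transcription factor POU2F3, make acetylcholine with CHAT, and make leukotrienes and prostaglandins from arachidonic acid with ALOX5, its partner ALOX5AP and PTGS1. In the mouse olfactory epithelium, TRPM5-positive microvillous cells are cholinergic, and a separate microvillous type resembles the ionocytes of the airway.

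Counts in pig genes were 39915150 to 43253395 in knockout and 30836904 to 42281883 in wild-type piglets. CFTR was 6.84 ± 1.36 CPM (read counts relative to library size, scaled by the TMM method) in knockout piglets and 40.4 ± 10.9 CPM in wild-type piglets (SD, n = 4 each). Its log2 fold change, knockout over wild type, was -2.56 with an SE of 0.21 (edgeR quasi-likelihood test, Benjamini-Hochberg adjusted p = 0.0121). It was the 1 gene among 17175 tested that passed an adjusted p of 0.05, or 0.00582%. The call was lost without knockout piglet 6 (edgeR adjusted p = 0.122) or 20 (0.0545) and without wild-type piglets 9 and 12 together (0.0668), while the log2 fold change stayed between -2.77 and -2.25 in all 16 alternatives. By that test 0 were higher in knockout piglets, against 928 with an unadjusted p under 0.05 in that direction (edgeR), 84 (0.489%) that DESeq2 called higher and 3 (0.0175%) that limma called higher. The Y-linked EIF1AY and KDM5D had reads in wild-type piglets 9 and 12 and 0 reads in the other 6 libraries. One library stood apart: bone and connective tissue markers summed to 45353 CPM in knockout piglet 18, with 1596 to 2495 CPM for the remaining knockout piglets and 1987 to 5654 CPM for wild-type piglets. In bulk tissue, more cells of a type and more RNA per cell cannot be told apart.

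None of the 10 genes passed the adjusted threshold. The channel TRPM5, the transcription factor POU2F3, the adaptor SH2D6 and the acetylcholine enzyme CHAT had fitted levels 1.69 to 2.13 times as high in knockout piglets as in wild-type piglets, and reads of the G protein subunit GNAT3 were nearly all from knockout piglets. For each of these 5, knockout piglets 20 and 21 were the highest of the 8. ALOX5 and AVIL lay between, with log2 fold changes of 0.46 and 0.31. The phospholipase PLCB2 and the leukotriene partner ALOX5AP lay near equality, and PTGS1 was lower in knockout piglets. This grouping was made after the values were seen. Of the 9 genes that passed the filter on low counts, 8 had a log2 fold change above 0 (51.6% of all genes tested) and 1 below 0 (48.4%). Their median was 0.46, against 0.01 for all genes tested. Each of the 9 reached the filter's level of 0.240 CPM in all 4 knockout and all 4 wild-type libraries. By unadjusted p under 0.05, TRPM5, POU2F3 and SH2D6 were higher in knockout piglets, 3 of 9 against 5.4% of all genes tested by edgeR and 3 of 9 against 6.26% by DESeq2. By limma with quality weights, TRPM5, POU2F3, CHAT and ALOX5 were, 4 of 9 against 11.9%. The members were chosen with earlier results of these data known, and these genes varied together among the libraries. The shares are therefore a description and not a test. After adjustment DESeq2 called 0 of the 9 (smallest adjusted p = 0.138, background 1.28%), and so did limma with quality weights (0.113, background 0.064%). In the 6 libraries left without wild-type piglets 9 and 12, of which 4 were knockout, the log2 fold changes of TRPM5, POU2F3, SH2D6 and CHAT were 1.31, 1.57, 1.12 and 1.59. The edgeR adjusted p values were 0.334, 0.324, 0.364 and 0.309. Piglet 12 was the highest wild-type library for each of these genes, and the wild-type piglets that remained were the lowest on their mean. Without piglet 12 alone, the log2 fold changes were 1.16, 1.41, 1.01 and 1.31.

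**Figure D1:**
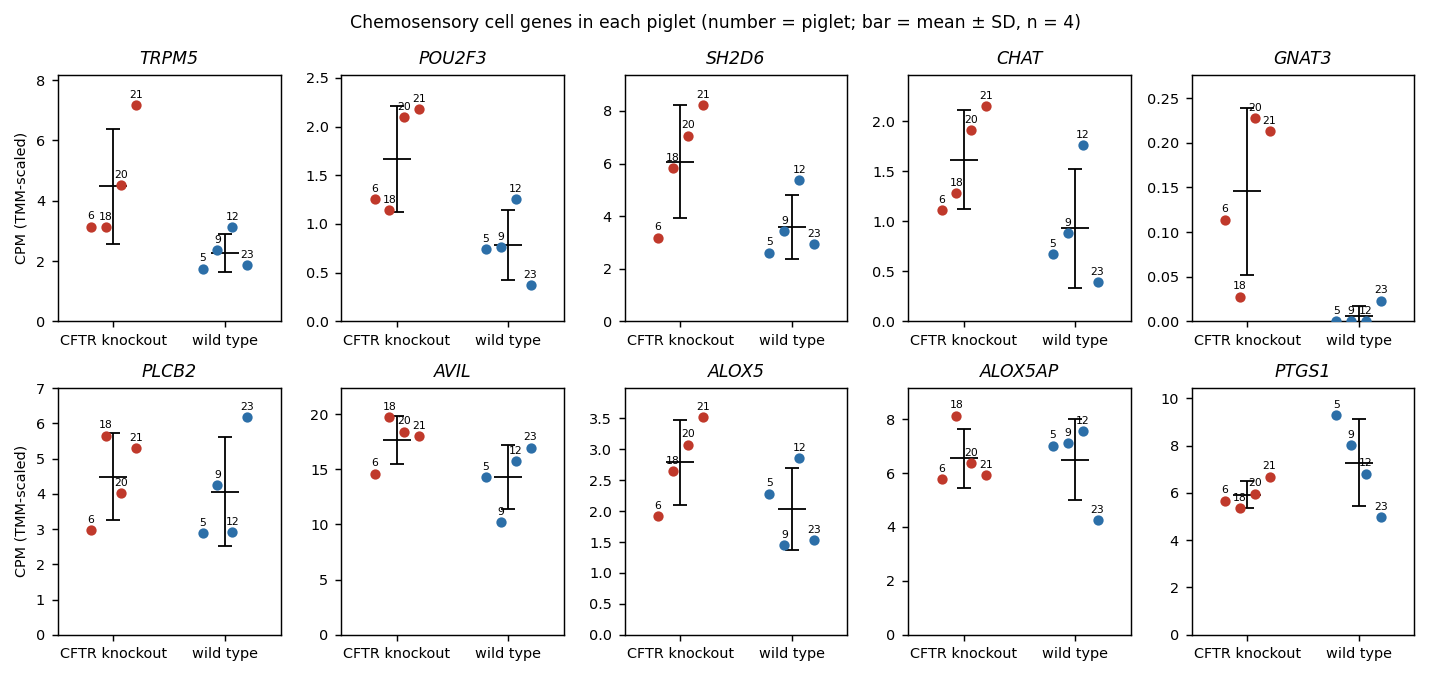
TMM-scaled CPM (vertical axes, each from 0) of the 10 genes in each piglet, knockout left and wild type right, with the piglet's number beside its point and the mean ± SD of 4 piglets as a bar. TRPM5, POU2F3, SH2D6, CHAT and GNAT3 in the upper row are highest in knockout piglets 20 and 21, while wild-type piglet 12 is the highest wild-type library for the first 4 of them; in the lower row the groups overlap throughout.

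Among the 9 tested genes, the transcription factor POU2F3 had the largest log2 fold change. POU2F3 (ENSSSCG00000028237, chromosome 9, 47383388 to 47457034, plus strand, build not given in the sources used here) is required for tuft cells and sweet, bitter and umami taste cells in mice. It measured 1.25, 1.14, 2.10 and 2.18 CPM in knockout piglets 6, 18, 20 and 21, against 0.745, 0.759, 1.26 and 0.372 CPM in wild-type piglets 5, 9, 12 and 23. Wild-type piglet 12 lay level with knockout piglet 6, so the groups overlapped, and wild-type piglet 23 was the lowest of all with 16 reads. The means were 1.67 ± 0.545 CPM in knockout and 0.783 ± 0.363 CPM in wild-type piglets (SD, n = 4 each). The fitted log2 fold change was 1.09 ± 0.40 (SE, edgeR adjusted p = 0.409).

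TRPM5 (ENSSSCG00000039644, chromosome 2, 1647160 to 1661541, minus strand) opens at the end of the taste cascade and depolarises the cell. Its values were 3.14, 3.12, 4.51 and 7.16 CPM in knockout piglets 6, 18, 20 and 21, against 1.75, 2.37, 3.12 and 1.86 CPM in wild-type piglets 5, 9, 12 and 23. Knockout piglet 21 was highest, and knockout piglets 6 and 18 were level with wild-type piglet 12. The 2 groups were apart by 3.120 against 3.118 CPM with TMM scaling, and overlapped with no scaling factor, with DESeq2 size factors and with upper quartile scaling. The log2 fold change was 0.98 ± 0.33 (SE, edgeR adjusted p = 0.402), for 4.49 ± 1.90 CPM in knockout and 2.28 ± 0.622 CPM in wild-type piglets (SD, n = 4 each). Without knockout piglet 21 it was 0.66 (edgeR adjusted p = 0.600), the lowest of the fits that left out 1 library.

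GNAT3 (ENSSSCG00000015406, chromosome 9, 99859832 to 99910157, plus strand) encodes the alpha subunit of gustducin and was the rarest of the 10. Its reads were 5, 1, 10 and 9 in knockout piglets 6, 18, 20 and 21, against 0, 0, 0 and 1 in wild-type piglets 5, 9, 12 and 23. Knockout piglet 18 and wild-type piglet 23 therefore tied at 1 read, and the other knockout piglets lay above every wild-type one. The counts summed to 25 in 168946561 reads of knockout and 1 in 154433491 reads of wild-type piglets, a ratio of 22.9 with an exact 95% interval of 3.74 to 938 that covers counting error only. GNAT3 fell below the filter on low counts. The two-sided exact permutation test of CPM gave p = 0.0286, the smallest that 4 against 4 can give. It rests on the order of the tied pair, 0.0279 CPM in knockout piglet 18 and 0.0233 CPM in wild-type piglet 23, which library depth alone sets. An edgeR fit without the filter gave an adjusted p of 0.380. In the 3 wild-type libraries with 0 reads, 3 counts would have been 0.0721 to 0.0949 CPM, which is the level a count of 0 allows, and knockout piglets 6, 20 and 21 had 0.114 to 0.228 CPM.

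PLCB2 (ENSSSCG00000004779, chromosome 1, 131004874 to 131028162, plus strand), the enzyme between gustducin and TRPM5, did not follow them. It measured 2.96, 5.66, 4.01 and 5.30 CPM in knockout piglets 6, 18, 20 and 21, against 2.88, 4.24, 2.92 and 6.19 CPM in wild-type piglets 5, 9, 12 and 23. The highest value of all was in wild-type piglet 23, which was lowest for POU2F3, and the groups overlapped over nearly their whole range. The log2 fold change was 0.14 ± 0.31 (SE, edgeR adjusted p = 0.867), and it was -0.13 without wild-type piglet 5 and knockout piglet 18.

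SH2D6, an adaptor with an SH2 domain that marks tuft cells in mouse single-cell studies, was identified by position (ENSSSCG00000008240, chromosome 3, 59317024 to 59324184, minus strand). Its span overlapped 59.4% of the span of SH2D6 in RefSeq's Sscrofa11.1 table, and 58.7% of its own span was covered, so the identity is less certain than for the other 9. The values were 3.19, 5.82, 7.06 and 8.23 CPM in knockout piglets 6, 18, 20 and 21, against 2.62, 3.45, 5.37 and 2.93 CPM in wild-type piglets 5, 9, 12 and 23. Knockout piglet 6 lay among the wild-type piglets, and the other 3 knockout piglets lay above them all. The log2 fold change was 0.76 ± 0.33 (SE, edgeR adjusted p = 0.443).

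AVIL (ENSSSCG00000029571, chromosome 5, 23087915 to 23111686, minus strand) encodes advillin, an actin-binding protein of microvilli in tuft cells that sensory neurons also make. Its CPM was 14.6, 19.7, 18.4 and 18.04 in knockout piglets 6, 18, 20 and 21, against 14.3, 10.2, 15.7 and 17.0 in wild-type piglets 5, 9, 12 and 23. The groups overlapped, with wild-type piglet 9 lowest, and the log2 fold change was 0.31 ± 0.17 (SE, edgeR adjusted p = 0.501). Of its 6570 annotated exon bases, 3529 are shared on the same strand with CTDSP2, a widely expressed phosphatase at 57.8 ± 6.97 CPM in knockout and 43.8 ± 12.5 CPM in wild-type piglets (SD, n = 4 each). The AVIL value is uncertain, since the sources used here do not say how reads over shared exons were counted. Over the 8 libraries, centred on the genotype means, the log2 CPM of the 2 genes had a Pearson r of 0.59.

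CHAT (ENSSSCG00000010392, chromosome 14, 90116156 to 90170827, plus strand) makes acetylcholine. It measured 1.12, 1.28, 1.91 and 2.15 CPM in knockout piglets 6, 18, 20 and 21, against 0.673, 0.886, 1.76 and 0.396 CPM in wild-type piglets 5, 9, 12 and 23. Wild-type piglet 12 stood above knockout piglets 6 and 18, and wild-type piglet 23 was lowest with 17 reads. The log2 fold change was 0.80 ± 0.45 (SE, edgeR adjusted p = 0.505). Without wild-type piglet 12 it was 1.31 (edgeR adjusted p = 0.159), and without wild-type piglet 23 it was 0.54 (0.728).

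Other genes of acetylcholine handling lay on both sides of 0. The vesicular transporter SLC18A3, whose gene lies beside CHAT, had 1 to 3 reads per knockout library and 2 to 4 per wild-type library. The choline transporter SLC5A7 had 3 to 4 reads per knockout library and 0 to 6 per wild-type library, so no difference was detectable at this depth. Of 8 genes of this list that were tested, 4 were above 0 and 4 below, with a median log2 fold change of 0.00 and no adjusted call. The muscarinic receptor CHRM2 was 0.408 ± 0.0644 CPM in knockout and 1.05 ± 0.580 CPM in wild-type piglets (SD, n = 4 each), with -1.36 ± 0.39 on the log2 scale (SE, edgeR adjusted p = 0.360). The nicotinic subunit CHRNB2 had 0.44 ± 0.21 and the muscarinic receptor CHRM4 0.50 ± 0.24 on the same scale.

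The enzymes of lipid signals divided among themselves. ALOX5 (ENSSSCG00000010404, chromosome 14, 90858987 to 90907082, minus strand) is 5-lipoxygenase, which begins leukotriene synthesis. It measured 1.91, 2.65, 3.08 and 3.52 CPM in knockout piglets 6, 18, 20 and 21, against 2.28, 1.46, 2.85 and 1.54 CPM in wild-type piglets 5, 9, 12 and 23. Knockout piglets 20 and 21 were above every wild-type piglet and the other 2 knockout piglets lay within the wild-type range (log2 fold change 0.46 ± 0.30, SE, edgeR adjusted p = 0.544).

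ALOX5AP (ENSSSCG00000009330, chromosome 11, 7411644 to 7438108, plus strand) presents arachidonic acid to ALOX5. Its CPM was 5.76, 8.14, 6.38 and 5.91 in knockout piglets 6, 18, 20 and 21, against 7.02, 7.12, 7.56 and 4.26 in wild-type piglets 5, 9, 12 and 23. The groups overlapped fully, with 1 low wild-type library, and the log2 fold change was 0.01 ± 0.21 (SE, edgeR adjusted p = 0.986). Its span lies on the opposite strand of an unnamed gene with 0 shared exon bases.

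PTGS1 (ENSSSCG00000005533, chromosome 1, 262456220 to 262484227, plus strand) is the constitutive cyclooxygenase of prostaglandin synthesis and was the member with a negative difference. It measured 5.67, 5.35, 5.97 and 6.69 CPM in knockout piglets 6, 18, 20 and 21, against 9.28, 8.03, 6.82 and 4.98 CPM in wild-type piglets 5, 9, 12 and 23. The knockout piglets were close together and inside the wild-type range, whose ends were piglets 5 and 23 (log2 fold change -0.30 ± 0.20, SE, edgeR adjusted p = 0.564).

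Per kilobase of exon, the scale on which genes can be compared, ALOX5AP led in both groups at 7.67 ± 1.28 CPM per kb in knockout and 7.60 ± 1.77 in wild-type piglets (SD, n = 4 each). AVIL followed at 2.69 ± 0.332 and 2.18 ± 0.446 CPM per kb in knockout and wild-type piglets. Its level and its place are uncertain, because 3529 of its 6570 exon bases are shared with CTDSP2. In knockout piglets POU2F3, PTGS1, TRPM5, SH2D6, PLCB2 and ALOX5 came next, between 1.32 and 0.975 CPM per kb, and neighbours in this order differed by less than their SD. In wild-type piglets PTGS1 stood above this group at 1.57 ± 0.394 CPM per kb, and PLCB2, ALOX5, SH2D6, TRPM5 and POU2F3, between 0.942 and 0.621, did not differ from their neighbours beyond the SD. CHAT, at 0.274 ± 0.0840 and 0.157 ± 0.100 CPM per kb in knockout and wild-type piglets, and GNAT3, at 0.137 ± 0.0877 and 0.00546 ± 0.0109, closed the order in both groups.

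**Figure D2:**
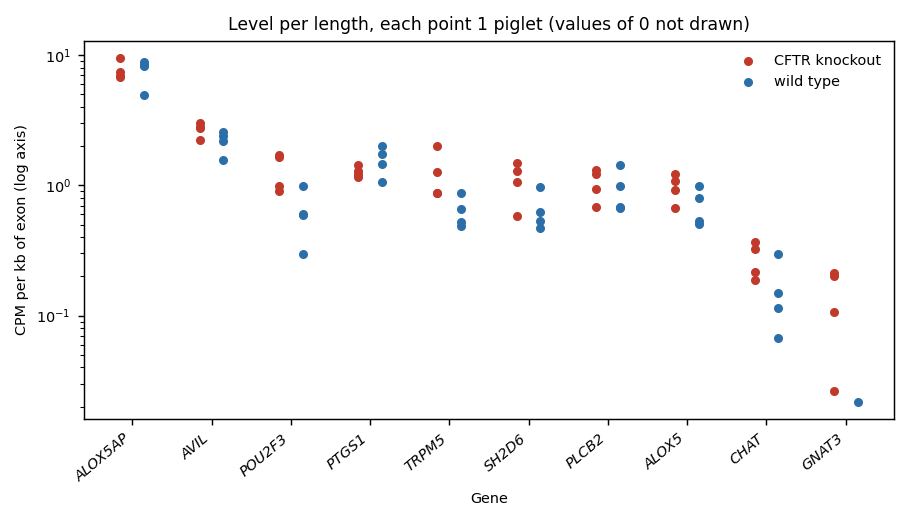
CPM per kilobase of exon (vertical log axis) of the 10 genes, ordered by their mean in knockout piglets, with knockout piglets left and wild-type piglets right in each pair and 1 point per piglet. ALOX5AP and AVIL lie above the rest, CHAT and GNAT3 below, and 3 wild-type values of 0 for GNAT3 are not drawn. The place of AVIL is uncertain because it shares exon bases with CTDSP2.

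The members were not all carried by the same libraries. Centred on the genotype means, the log2 CPM of TRPM5, POU2F3, SH2D6 and CHAT varied together over the 8 libraries, with a Pearson r between 0.70 and 0.96 in their 6 pairs, and the highest r was that of POU2F3 with CHAT. ALOX5 had an r of 0.63 to 0.76 with each of these 4 genes. Pairs among PLCB2, AVIL, ALOX5, ALOX5AP and PTGS1 had a median r of 0.08 and ranged from -0.53 to 0.55. The 20 pairs of 1 of the 4 genes with another member ranged from -0.49 to 0.76, with a median r of 0.28. PLCB2 had an r of -0.49 with POU2F3 and -0.37 with CHAT. With the same 2 genes, PTGS1 had 0.60 and 0.43 and ALOX5AP had 0.50 and 0.57. The 4 genes were grouped after their values were seen, the libraries share a dissection and a scaling, and no test was made. Averaged over these 4 genes, the deviation of log2 CPM from each gene's mean was -0.06, 0.17, 0.72 and 0.99 in knockout piglets 6, 18, 20 and 21, and -0.69, -0.38, 0.28 and -1.03 in wild-type piglets 5, 9, 12 and 23. Wild-type piglet 12 thus lay above knockout piglets 6 and 18 on this measure.

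**Figure D3:**
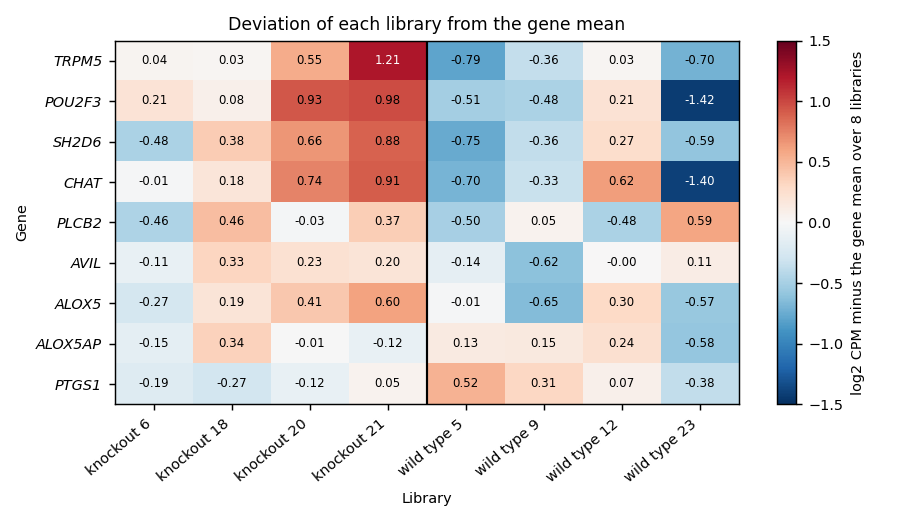
Log2 CPM minus the gene's mean over the 8 libraries (colour and printed value), with genes in rows, knockout piglets left of the line and wild-type piglets right of it. The first 4 rows share their high libraries, knockout 20 and 21, and their low ones, wild type 5 and 23, while PLCB2 is highest in wild type 23 and PTGS1 in wild type 5; GNAT3 is not shown because it fell below the filter on low counts.

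The genes whose centred log2 CPM was most like the mean profile of the 9 tested members over the 8 libraries, among 13158 candidates, were PRKD2 (r = 0.97), TRIM14 (0.91), CEL (0.90), VWA3A (0.90), SUPT5H (0.89), DNAJC27 (0.89), SLCO4A1 (0.88) and TRMT44 (0.88). Their log2 fold changes lay between -0.50 and 0.13, and none belongs to the lists used here. Of the listed genes, the adaptor SH2D7 came nearest, at rank 13 (r = 0.87), and the tyrosine kinase BMX next, at rank 41 (0.83). With 8 libraries and this many candidates, such values are a description of these libraries.

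Other tuft cell genes gave a mixed picture with no adjusted call. Of 14 tested genes of tuft cell identity and cytoskeleton, 9 were above 0, with a median log2 fold change of 0.20 and 3 with an unadjusted p under 0.05 by edgeR, all higher in knockout piglets (5.4% of all genes tested). IRAG2, a partner of the inositol trisphosphate receptor that was named by position, was 2.05, 3.48, 2.30 and 3.69 CPM in knockout piglets 6, 18, 20 and 21, against 1.92, 1.23, 1.89 and 1.28 CPM in wild-type piglets 5, 9, 12 and 23. Its groups did not overlap, and the log2 fold change was 0.86 ± 0.28 (SE, edgeR adjusted p = 0.396). SH2D7, related to SH2D6, was 5.73 ± 1.99 CPM in knockout and 3.16 ± 1.23 CPM in wild-type piglets (SD, n = 4 each), with 0.86 ± 0.32 on the log2 scale (edgeR adjusted p = 0.409). HEPACAM2, an adhesion protein of the immunoglobulin family, was 30.1 ± 2.39 and 25.5 ± 1.67 CPM in knockout and wild-type piglets (0.24 ± 0.09, edgeR adjusted p = 0.410). Its groups were apart by 27.3 against 26.7 CPM with TMM scaling. They overlapped relative to library totals with no scaling factor, where knockout piglet 18 (1046 of 39915150 counts) was below wild-type piglet 9 (844 of 30836904). With TMM scaling, groups that did not overlap with knockout higher were thus 2 of 14, against 2.45% of all genes tested.

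The genes of this paragraph were named after their values were seen. GFI1B and SPIB, transcription factors of tuft cells, were at 0.73 ± 0.34 and 0.65 ± 0.30 on the log2 scale. The kinase DCLK1, a tuft cell marker in mouse gut that neurons also make, had 0.16 ± 0.13 at 203 ± 23.6 CPM in knockout and 181 ± 30.4 CPM in wild-type piglets (SD, n = 4 each). The 5 tested genes of this list below 0 were VIL1 (-0.633), KCNJ16 (-0.322), ESPN (-0.227), ASCL2 (-0.163) and BMX (-0.06 ± 0.18). Of the 2 coactivators of POU2F3, POU2AF3 had 0.12 ± 0.10 and POU2AF2 fell below the filter with 46 reads in knockout and 28 in wild-type piglets.

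**Figure D4:**
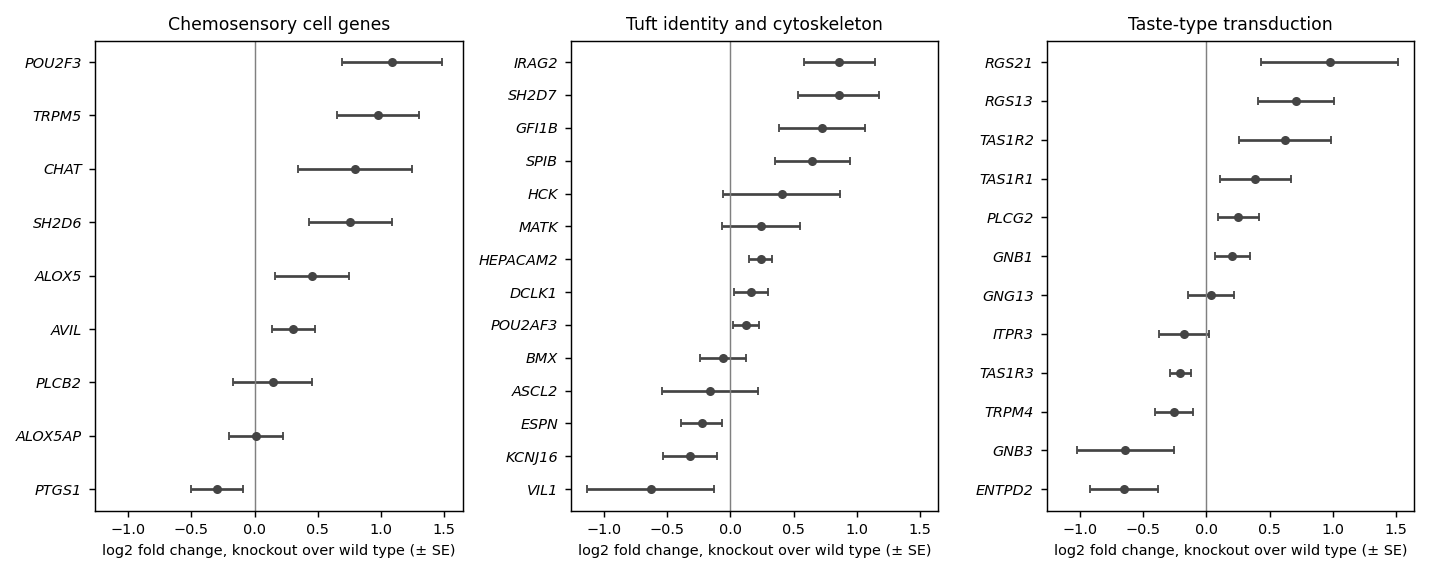
Log2 fold change of knockout over wild type (horizontal axis, bars ± SE from edgeR) for the 9 tested members, the 14 tested genes of tuft cell identity and the 12 of taste-type transduction, each panel sorted by value. No gene shown passed an adjusted p of 0.05. POU2F3, TRPM5, IRAG2 and SH2D7 are near the top of their panels, and the taste-type transduction genes spread to both sides of 0.

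Genes of the taste cascade outside the members lay on both sides of 0. Of 12 tested, 7 were above 0, with a median log2 fold change of 0.12, and by unadjusted p under 0.05 there was 1 higher and 2 lower (background 5.4% and 5.8% of all genes tested). RGS13, a brake on G protein signalling, was 1.90 ± 0.614 CPM in knockout and 1.16 ± 0.281 CPM in wild-type piglets (SD, n = 4 each), with 0.71 ± 0.30 on the log2 scale (edgeR adjusted p = 0.433). TAS1R3, the shared subunit of sweet and umami receptors, was 27.3 ± 1.82 and 31.5 ± 1.78 CPM in knockout and wild-type piglets (-0.21 ± 0.08, edgeR adjusted p = 0.422). ENTPD2, the ATP-degrading enzyme of glia-like taste cells, had -0.65 ± 0.27 (edgeR adjusted p = 0.426). The subunit GNG13 and the calcium channel ITPR3, named after their values were seen, were at 211 ± 20.2 and 106 ± 22.2 CPM in knockout and 206 ± 54.6 and 120 ± 31.9 CPM in wild-type piglets. All 11 genes with a TAS2R symbol, bitter taste receptors added to the lists after the data were seen, fell below the filter, with up to 33 reads per gene and group.

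In the rest of the eicosanoid pathway the balance was on the lower side, with 4 of 14 tested enzymes above 0, a median log2 fold change of -0.14 and no adjusted call. ALOX15, the 15-lipoxygenase, stood at 52.3 ± 26.2 and 93.5 ± 9.79 CPM per kb in knockout and wild-type piglets (SD, n = 4 each), where ALOX5 stood at 0.975 ± 0.240 and 0.710 ± 0.231. It measured 194, 220, 557 and 465 CPM in knockout piglets 6, 18, 20 and 21, against 585, 738, 634 and 610 CPM in wild-type piglets 5, 9, 12 and 23. The groups did not overlap (knockout lower in 3.35% of all genes tested), and the spread was within the knockout group, where piglets 6 and 18 were lowest (log2 fold change -0.84 ± 0.32, SE, edgeR adjusted p = 0.413).

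HPGD, which inactivates prostaglandins, was 275 ± 49.7 CPM in knockout and 189 ± 41.8 CPM in wild-type piglets (SD, n = 4 each), with 0.54 ± 0.18 on the log2 scale (edgeR adjusted p = 0.401). PTGES3, a cochaperone with prostaglandin E synthase activity, had -0.25 ± 0.09 (edgeR adjusted p = 0.409). Downstream of ALOX5, the leukotriene A4 hydrolase LTA4H was at 72.2 ± 3.50 and 80.1 ± 8.68 CPM in knockout and wild-type piglets, whereas LTC4S, which makes the cysteinyl leukotriene of mouse tuft cells, had 23 reads in knockout and 7 in wild-type piglets. Both were named after their values were seen.

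Receptors and alarmins of this signalling had no adjusted call either. Of 10 tested eicosanoid receptors 4 were above 0 (median -0.07). PTGER1, a prostaglandin E2 receptor, was 0.764 ± 0.268 CPM in knockout and 1.60 ± 0.394 CPM in wild-type piglets (SD, n = 4 each), with -1.06 ± 0.32 on the log2 scale (edgeR adjusted p = 0.372). The prostacyclin receptor PTGIR had -0.51 ± 0.30, and the prostaglandin F receptor PTGFR 1.08 ± 0.82, which became -0.39 without knockout piglet 18. Of 5 tested alarmin and receptor genes 2 were above 0 (median -0.07). IL33, an epithelial alarmin, had -0.94 ± 0.39, the decoy receptor IL13RA2 -1.22 ± 0.43 and the receptor chain IL13RA1 0.15 ± 0.11. Wild-type piglet 5 was the highest library for IL33 and IL13RA2, and without it their values were -0.53 and -0.71. TSLP was below the filter, and IL25, the tuft cell cytokine of mouse gut, was not matched to an identifier and is not analysed here.

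Several members are also made by other cells, whose markers were summed in each library. Mature olfactory neurons, of which some express TRPM5 in mice, had all 13 tested markers above 0 (median log2 fold change 0.37). By unadjusted p under 0.05 (edgeR), 5 of the 13 were higher in knockout piglets, against 5.4% of all genes tested. For 1 of them, CNGA2, the groups did not overlap (knockout higher in 2.45% of all genes tested), and none had an adjusted call. Their sums were 8586 to 10365 CPM in knockout and 5502 to 9366 CPM in wild-type piglets, lowest in wild-type piglet 5. Without wild-type piglet 5, the log2 fold changes were 0.86 for TRPM5, 1.06 for POU2F3, 0.63 for SH2D6 and 0.66 for CHAT. General epithelial markers were above 0 in 1 of 7 (median -0.19), with sums of 1411 to 1806 and 1608 to 2319 CPM in knockout and wild-type piglets. Ionocyte-type microvillous markers were above 0 in 6 of 8 (median 0.17), with sums of 336 to 451 CPM in knockout and 247 to 316 CPM in wild-type piglets. One of them, the proton pump subunit ATP6V0D2, was 41.2 CPM in knockout piglet 18 and at most 0.342 CPM in the remaining knockout piglets, against at most 5.35 CPM in wild-type piglets. ATP6V1C2 made up the largest part of the sums, at 200 ± 41.2 CPM in knockout and 135 ± 29.8 CPM in wild-type piglets (SD, n = 4 each). Its log2 fold change was 0.56 ± 0.19 (SE, edgeR adjusted p = 0.403). COCH reached 94.5 CPM in knockout piglet 21. FOXI1 and ATP6V1B1 lay near equality (0.015 and 0.014), and the 2 markers below 0 were ATP6V1G3 (-0.08) and BSND (-0.41). Of these markers, 0 of the 8 genes had groups that did not overlap with knockout higher (2.45% of all genes tested). Their part in the values of the members was not tested.

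Leukocytes, which use ALOX5, ALOX5AP, PLCB2 and PTGS1, had 11 of 15 tested markers above 0 (median 0.25), and their summed CPM was 382 in knockout piglet 18, 123 to 133 in the remaining knockout piglets and 99.7 to 157 in wild-type piglets. The general leukocyte marker PTPRC reached 12.4 CPM in that library, with 1.52 to 4.21 CPM in the other 7. ALOX5AP was highest in that library as well, at 8.14 CPM, and its log2 fold change without that library was -0.11. Among the knockout piglets PLCB2 was highest there, at 5.66 CPM. ALOX5, at 2.65 CPM, was below knockout piglets 20 and 21, and PTGS1, at 5.35 CPM, was the lowest of the knockout piglets. AVIL, and CTDSP2 that shares part of its exon bases, were also highest in that library, at 19.7 and 64.4 CPM. ITGAM, an integrin of myeloid cells, was 21.6 ± 4.30 CPM in knockout and 11.5 ± 3.39 CPM in wild-type piglets (SD, n = 4 each), with 0.91 ± 0.23 on the log2 scale (edgeR adjusted p = 0.334), and DESeq2 called it higher (adjusted p = 0.0188). LCP1, an actin-bundling protein, had 0.48 ± 0.18, and the macrophage receptor CSF1R 1.63 ± 0.85, or -0.21 without knockout piglet 18. The 4 tested markers below 0 were CD14 (-0.07), S100A8 (-0.62), S100A9 (-0.10) and CD79A (-0.26). ITGAM did not follow PTPRC across the libraries: in knockout piglet 6 it was 24.8 CPM, where PTPRC was 1.71 CPM. The neutrophil and T cell genes MPO and CD3E were below the filter. The mast cell genes KIT, HDC and MS4A2 were detected in every library, CPA3 had 0 reads in all 8, and summed mast cell markers were 46.5 to 66.5 CPM in knockout and 39.1 to 78.1 CPM in wild-type piglets. Platelet markers, relevant to PTGS1, summed to 1.87 to 3.79 and 1.75 to 3.01 CPM in knockout and wild-type piglets. The part of these cells in the values of the members was not tested.

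**Figure D5:**
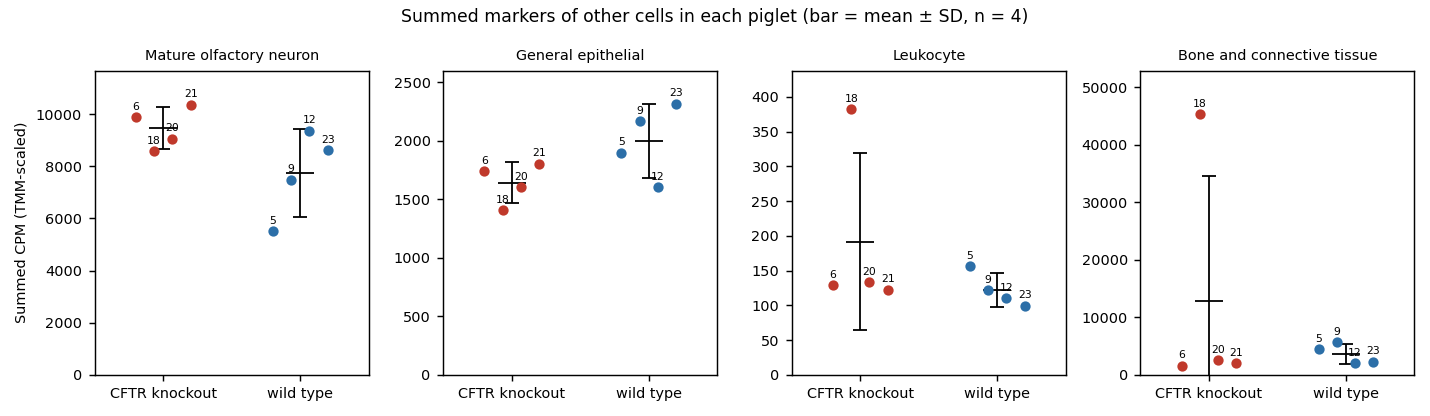
Summed TMM-scaled CPM (vertical axes, each from 0) of markers of mature olfactory neurons, epithelium, leukocytes, and bone and connective tissue in each piglet, knockout left and wild type right, with the mean ± SD of 4 piglets as a bar. Knockout piglet 18 stands apart for leukocytes at 382 CPM and for bone and connective tissue at 45353 CPM (the lower end of that SD bar lies below the axis), and wild-type piglet 5 is lowest for neurons at 5502 CPM.

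Markers of the other epithelial cells overlapped between the groups. Those of sustentacular cells, which support the olfactory neurons, summed to 5772 to 7786 CPM in knockout and 6225 to 8099 CPM in wild-type piglets, with 5 of 10 tested genes above 0. Those of respiratory ciliated cells summed to 1091 to 1432 and 1066 to 1458 CPM in knockout and wild-type piglets, with 4 of 7 above 0. Markers of mature neurons and sustentacular cells, the defining cells of the labelled tissue, were thus present in every library.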

How the data were processed

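Per the labels, DNase-treated column RNA went into TruSeq libraries. The deposited table holds unnormalized read counts for each gene, in the layout of featureCounts per the file headers. Exon length, in another column of the deposited table, was used for levels per kilobase. The submitters' processing notes name DESeq2, HTSeq, STAR 2.4.0 and featureCounts with Subread 1.5.0-p3. Genome build, annotation and strand setting are not given in the sources used here, which leaves overlapping genes uncertain. The labels give each library a piglet of its own. Pig genes held 30836904 to 43253395 counts per library, at least 99.998% of its counts, and other identifiers were left out.

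Symbols came from a table of gene names (14857 genes) or from an overlap of at least 50% of both gene spans with RefSeq (1642 genes; of known genes with such a match, 94.4% received their own symbol). Counts were fitted with edgeR 4.0.16 (quasi-likelihood test, TMM, default filter, genotype as factor) in R 4.3.3, with Benjamini-Hochberg adjustment over 17175 genes at 0.05. SE were derived from the F statistic, and log2 CPM used a prior count of 2. Pipelines were tested on simulated data. Alternatives used DESeq2 1.42.0, limma 3.58.1, other scalings and filters, and the omission of libraries. The members and lists were chosen with earlier results of these data known. All 10 members and CFTR were named, with up to 3 genes of smallest p in each list and the 8 genes most like the members. Other genes were named after their values were seen.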

Additional observations from a re-analysis of the deposited data

Results flagged for a closer look

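Among 52 groups of 4 libraries examined for a single distant value, 6 had one. Chance alone would give about 1 in 20 if the groups were independent, which they are not. For GNAT3, wild-type piglet 23 had 0.0233 CPM, which is 1 read, where the other wild-type piglets had 0. With those at 0, any read in piglet 23 would have given this flag. For ALOX5AP, wild-type piglet 23 had 4.26 CPM, below 7.02 to 7.56 CPM in the other wild-type piglets. The other 4 were sums in knockout piglet 18, so they are not separate events. Taste-type transduction genes summed to 1897 CPM there, against 2160 to 2194 CPM in the other knockout piglets, and eicosanoid receptors to 103 CPM, against 27.4 to 37.3 CPM. GNB1 made up the largest part of the taste-type sum. Its CPM was 1525 in that library, against 1761 to 1790 in the rest of the group, so the low sum mainly describes GNB1. Leukocyte markers summed to 382 CPM, against 123 to 133 CPM, and bone and connective tissue markers to 45353 CPM, against 1596 to 2495 CPM.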

How the results depend on the processing

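No alternative gave an adjusted p under 0.05 for any of the 9 tested members, the smallest being 0.113 for POU2F3 in limma with quality weights. TRPM5, POU2F3, SH2D6, CHAT, ALOX5 and AVIL stayed above 0 and PTGS1 below 0 in all 16 alternatives, with log2 fold changes of 0.66 to 1.31, 0.85 to 1.57, 0.58 to 1.12, 0.54 to 1.59, 0.32 to 0.66, 0.17 to 0.40 and -0.44 to -0.12. PLCB2 turned its sign in limma (-0.084), in a fit lacking wild-type piglet 5 (-0.003), in one that also lacked knockout piglet 18 (-0.13) and in the 6 libraries lacking Y-linked reads (-0.028). That of ALOX5AP turned with upper quartile scaling (-0.008), without knockout piglet 18 (-0.11), without wild-type piglet 23 (-0.15) and without wild-type piglet 5 and knockout piglet 18 (-0.075). Without knockout piglet 18, PTGFR was -0.39 and CSF1R -0.21, and CSF1R was -0.17 without wild-type piglet 5 as well. With 1 library left out, the upper ends were 0.420 for PLCB2, 0.090 for ALOX5AP, 1.54 for PTGFR and 1.95 for CSF1R. The cause was not tested. DESeq2 called ITGAM higher (adjusted p = 0.0188). The count of called genes, 1 with edgeR, was 219 with DESeq2, 11 with limma, 0 to 16 when 1 library was left out, 2 without wild-type piglet 5 and knockout piglet 18 and 0 in the 6 libraries. CFTR lost its call without knockout piglet 6 (adjusted p = 0.122) or 20 (0.0545) and in the 6 libraries (0.0668), with log2 fold changes of -2.77 to -2.25 over all 16 alternatives. Reads per library were 16 to 303 for TRPM5, POU2F3 and CHAT and 10 at most for GNAT3. The parts of depth and of differences between piglets in the SE were not separated. No paired analysis was possible because the groups share no piglet number.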
